A study of Mus musculus with 8 samples.

Results

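A set of 10 genes of the killer programme was followed through the methylomes of lymphocytes that do not kill: the granzymes Gzma, Gzmb, Gzmk and Gzmm, perforin (Prf1), the granule protein Nkg7, the transcription factors Eomes and Tbx21, and the receptors Klrd1 and Klrk1. Each gene was taken by name, with its body and 10 kb on either side in the mm10 build (GENCODE annotation). The set was named with earlier results of these data known, and no level or difference served as a threshold for it. All 10 were found among 21755 protein-coding genes of the autosomes and X, and their windows held 3500 of the 18684786 CpGs that were listed in all 4 libraries. The windows of Klrd1 and Klrk1 overlap, and shared CpGs were counted once in that number but entered both windows where windows were tested.

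The study sequenced whole genomes after oxidative bisulfite treatment (WGoxBS), in which 5-hydroxymethylcytosine is oxidised first so that the reads left as cytosine stand for 5-methylcytosine. DNA came from spleens of C57BL/6J mice of 6 to 8 weeks, from naive CD4+ CD62L+ T cells or from resting CD43- B cells, in females and in males. The T cell protocol depleted cells bearing CD8a, CD49b (DX5), B220, CD11b, CD25 or the gamma/delta T cell receptor before sorting. The labels name 2 samples in each of the 4 groups, but 1 file stands for each group, so every group entered as 1 library with no replicate of its own, and the study's methods describe each replicate as cells pooled from several animals. RNA was not used here, so whether these genes were transcribed was not measured.

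The files listed 354634149 reads at CpGs for female B cells, 350655708 for female T cells, 280919817 for male B cells and 341892947 for male T cells, with a median of 14 to 17 reads per CpG. As a check of the labels, all 5 B cell marker promoters were lower in the B libraries and all 7 T cell marker promoters lower in the T libraries. The promoters of Cd8a (84.7% and 86.2% in the B libraries, 56.1% and 57.2% in the T libraries) and Cd8b1 (88.5% and 91.6%, 29.2% and 29.7%) were also lower in the T libraries, and none of 4 myeloid marker promoters was called (by adjusted p alone 1 was higher in each cell type). The natural killer markers were Ncr1, Klrb1c and the members Klrd1, Klrk1 and Nkg7, which are treated below. The promoters of Ncr1 (86.8% and 88.4% in the B libraries, 90.7% and 87.3% in the T libraries) and Klrb1c (78.9% and 80.5%, 80.6% and 80.9%) did not pass the test. In mitochondrial DNA the share of reads called methylated was 0.271% in female B and 0.727% in male B cells against 0.0733% and 0.0709% in the T libraries. Their part in the results below was not tested.

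Cytotoxic T cells and natural killer cells kill by releasing granules: perforin makes pores in the target membrane, and granzymes, a family of serine proteases, enter and start cell death. T-bet (Tbx21) and Eomesodermin (Eomes) are T-box transcription factors that switch on this set of genes, while CD94 (Klrd1) and NKG2D (Klrk1) are lectin-like receptors by which killer cells read their targets. Resting B cells and naive CD4+ T cells are not killers, and methylation of CpGs at a gene's start and enhancers is commonly, though not always, linked to silence.

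Within 250 bases before the start, 5 of the 8 CpG-poor members had a CpG at or below 20% in all 4 libraries. Among 12812 CpG-poor genes with a CpG there 52.6% had one, a share not far from that of the members. The bases before these 5 starts are shown, 5′ to 3′ on the gene's strand, in mm10, with every CpG in capitals. The sequence was read from the GRCm38 reference. It runs up to the annotated start, and for Gzmb up to 30 bases into the transcript as RefSeq places it. Those 30 bases hold the low CpG through which Gzmb is counted. The stretches shown are chr13:113100982-113101231 (minus strand) for Gzma, chr14:56262305-56262510 (minus) for Gzmb, chr10:61297583-61297832 (plus) for Prf1, chr7:43436823-43437072 (plus) for Nkg7 and chr6:129591532-129591781 (plus) for Klrd1.
Gzma: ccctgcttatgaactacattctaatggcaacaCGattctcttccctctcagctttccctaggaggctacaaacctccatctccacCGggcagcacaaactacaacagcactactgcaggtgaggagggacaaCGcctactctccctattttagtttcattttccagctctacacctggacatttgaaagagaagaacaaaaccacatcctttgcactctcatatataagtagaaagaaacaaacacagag
Gzmb: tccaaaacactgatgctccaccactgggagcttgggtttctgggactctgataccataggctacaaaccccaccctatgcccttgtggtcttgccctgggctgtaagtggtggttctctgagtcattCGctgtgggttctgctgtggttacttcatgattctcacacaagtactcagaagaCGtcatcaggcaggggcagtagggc
Prf1: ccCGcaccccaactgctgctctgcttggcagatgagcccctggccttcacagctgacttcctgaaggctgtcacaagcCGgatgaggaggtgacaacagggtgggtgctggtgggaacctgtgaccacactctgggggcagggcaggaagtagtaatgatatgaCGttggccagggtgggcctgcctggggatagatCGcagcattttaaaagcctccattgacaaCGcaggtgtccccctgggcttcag
Nkg7: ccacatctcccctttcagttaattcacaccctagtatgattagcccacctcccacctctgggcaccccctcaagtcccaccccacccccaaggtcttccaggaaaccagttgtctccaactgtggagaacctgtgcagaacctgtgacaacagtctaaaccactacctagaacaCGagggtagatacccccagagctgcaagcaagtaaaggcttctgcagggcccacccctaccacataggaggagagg
Klrd1: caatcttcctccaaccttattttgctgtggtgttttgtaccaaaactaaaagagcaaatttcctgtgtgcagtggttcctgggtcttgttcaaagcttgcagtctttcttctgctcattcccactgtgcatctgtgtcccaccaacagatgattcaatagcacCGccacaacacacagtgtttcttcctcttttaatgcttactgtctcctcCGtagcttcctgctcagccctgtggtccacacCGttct

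CpGs are sparse in these stretches, with 3, 2, 5, 1 and 3 of them in the order shown, and all of them were listed in every library. A search of the 300 bases from 250 before to 50 after each GENCODE start, on both strands, looked for TGTGGT, the core that Runx factors bind, and for AGGTGTGA, the core that T-box factors bind, which do not contain each other. TGTGGT was present at 7 of the 10 members (Gzma, Gzmb, Gzmm, Prf1, Nkg7, Klrd1 and Klrk1) and in 15.3% of 21755 such stretches genome-wide. All 7 are CpG-poor, whereas the genome-wide share takes CpG-rich and CpG-poor starts together. No share was taken for CpG-poor starts alone. AGGTGTGA was present at none of the 10 and in 1.20% of all.

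The promoter, taken as 1 kb to each side of the start, ranged among the members from 1.48% to 93.7% in the mean of the B libraries and from 0.823% to 93.7% in that of the T libraries. Gzmm, Gzmk and Klrk1 were highly methylated in every library, and Gzmb came next, at 70.8% to 81.9%. Gzma, Prf1, Nkg7 and Klrd1 lay between, and Eomes and Tbx21 were nearly bare. Only the last 2 have CpG-rich promoters (observed over expected CpG of 0.745 and 0.718, against at most 0.230 in the other 8). Levels below are methylated reads over all reads at the CpGs of a region, with Wilson 95% intervals where brackets are given, and these cover counting error only. Cell types were compared with edgeR on methylated and unmethylated reads over all promoters, with terms for cell type and sex, so that the female and male libraries of a cell type stood in for replicates. A region was called where the Benjamini-Hochberg adjusted p was under 0.05 and the mean B minus T difference was at least 20 percentage points. For whole gene windows the minimum was 5 points. The p-values measure only a spread between these 4 libraries, estimated over many regions together. For promoters and tiles a region's own spread between the libraries did not enter.

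**Figure D1:**
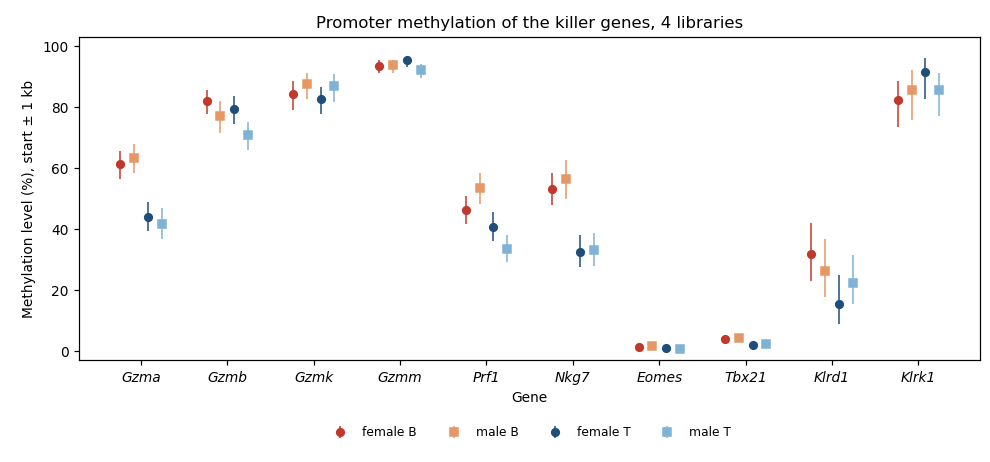
Methylation level (%, y axis) of the 10 promoters (x axis, 1 kb to each side of the start) in the 4 libraries. Points are levels over summed reads, and bars are Wilson 95% intervals. At Gzma and Nkg7 both B libraries (53.1% to 63.3%) sit above both T libraries (32.7% to 44.1%), whereas Eomes and Tbx21 stay under 5% in all.

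Among the granzymes, Gzma, a tryptase of the granules, had a promoter level of 61.3% (56.6 to 65.8) in female B and 63.3% (58.4 to 68.0) in male B cells, against 44.1% (39.4 to 49.0) in female T and 41.7% (36.7 to 47.0) in male T cells. The B libraries stood above the T libraries in both sexes, by 19.4 points on average (adjusted p = 1.79e-05, edgeR quasi-likelihood test), just short of the 20 points asked of a call. Gzmb, the granzyme that cleaves caspases, stood at 81.9% and 77.1% in the female and male B libraries and at 79.4% and 70.8% in the T libraries, a difference of 4.47 points that did not pass the test (adjusted p = 0.353). It was 0.187 without male T, 2.07 without female B, 6.87 without male B and 8.76 without female T cells, so its size rests on single libraries. Gzmm was at 93.6% and 93.8% in B and 95.4% and 92.1% in T cells, the highest promoter level of the 10.

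Gzmk needs a separate word, because its GENCODE gene row begins at a far transcript start, at chr13:113225908, while the principal transcript starts at chr13:113180897. At the far start the promoter level was 84.4% and 87.5% in B and 82.6% and 86.8% in T cells. At the principal start, an alternative chosen after the data were seen, it was 86.8% and 88.5% in B and 85.8% and 84.7% in T cells, and the B minus T difference passed the test at neither start (adjusted p = 0.805 and 0.461).

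Prf1, the pore-forming protein, was at 46.2% (41.8 to 50.7) in female B and 53.4% (48.4 to 58.3) in male B cells, against 40.6% (36.0 to 45.5) and 33.4% (29.1 to 38.0) in T cells. The difference of 12.8 points passed the test (adjusted p = 0.00757) but not the minimum of 20, and in females the intervals overlapped. Nkg7, a membrane protein of the granules, was at 53.1% (47.8 to 58.4) and 56.4% (49.8 to 62.8) in B and at 32.7% (27.6 to 38.2) and 33.1% (27.9 to 38.7) in T cells. It was the member called among promoters, 21.9 points higher in B (adjusted p = 2.94e-06). That call was lost without any 1 of the libraries: the adjusted p was 0.0725 without female B, 0.252 without female T, 0.156 without male B and 0.219 without male T cells, while the difference stayed between 20.2 and 23.5 points. Such a fit of 3 libraries has no term for sex and 1 library of a cell type, which is assumed to vary like those of the other. It was also lost with limma (adjusted p = 0.0542). The tests at Prf1 and Gzma were lost in the same way, without any 1 of the libraries. In those fits the difference was 9.19 to 16.4 points at Prf1 and 18.2 to 20.5 points at Gzma. With limma both were lost as well (adjusted p = 0.223 at Prf1 and 0.0764 at Gzma).

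The transcription factors were at the floor. Eomes was at 1.26% in female B, 1.71% in male B, 1.01% in female T and 0.637% in male T cells over 127 CpGs, a difference of 0.659 points that did not pass the test (adjusted p = 0.164). Tbx21 was at 4.16% and 4.29% in B and 1.87% and 2.38% in T cells, also over 127 CpGs, a difference of 2.10 points that passed the test without the minimum (adjusted p = 0.0114). It did not pass without any 1 of the libraries (adjusted p from 0.126 to 0.464), with limma (0.0936) or with 500 bases on either side of the start (0.0680). CpG-rich promoters as a whole had median levels of 3.57% and 4.28% in the female and male B and 2.79% and 2.87% in the T libraries and a median difference of 0.872 points, and the B libraries had the higher mitochondrial share. Whether that share plays a part at Tbx21 was not tested.

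The receptors had few CpGs. Klrk1 had 9 and was at 82.3% and 85.7% in B and 91.4% and 85.6% in T cells, a difference that did not pass the test (adjusted p = 0.538). Klrd1 had 7, at 31.8% and 26.2% in B and 15.4% and 22.4% in T cells (adjusted p = 0.205). The Klrd1 values are the sum of unlike CpGs: the 5 from -276 to 234 bp of the start were between 0% and 10.0% in every library, and the other 2, at 527 and 554 bp, were between 83.3% and 100%. The mean of its CpG levels, which gives each CpG the same weight, differed by only 0.949 points between B and T, so the 10.1 points from summed reads reflect how many reads fell on those 2 CpGs.

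Of the 10 member promoters, then, 1 was called higher in B, against 0.956% of 20501 promoters tested, and 0 higher in T, against 0.41%. By adjusted p alone 4 were higher in B (Gzma, Prf1, Tbx21 and Nkg7), against 17.7% of all promoters, and none was higher in T at an unadjusted p under 0.05 with edgeR or limma. The median difference over the members was 3.29 points and that of all promoters 0.970 points.

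Seen CpG by CpG, 5 of the 8 CpG-poor members (Gzma, Gzmb, Prf1, Nkg7 and Klrd1) had a CpG within 250 bases before the start at or below 20% in all 4 libraries, a limit set after the data were seen. Of 12812 CpG-poor genes with a CpG there 52.6% had one. Gzmb is counted only through a CpG that lies inside its transcript as RefSeq places it. Its other CpG there was between 20% and 50%, so by the RefSeq start Gzmb would not be counted. At Gzma low methylation reached further upstream in T than in B cells. In the following, positions count bases from the gene start, with negative numbers upstream. At Gzma position -217 the level was 78.6% in female B (14 reads) and 70.0% in male B cells (20 reads), against 0% in female T (26 reads) and 6.67% in male T cells (15 reads). At -164 it was 36.4% and 33.3% in B and 0% in both T libraries, and at -117 it was 7.69% and 7.14% in B and again 0% in T cells. These 3 CpGs are those in capitals in the Gzma sequence above. Further out, at -449, B cells were at 94.7% and 88.2% and T cells at 57.1% and 50%.

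**Figure D2:**
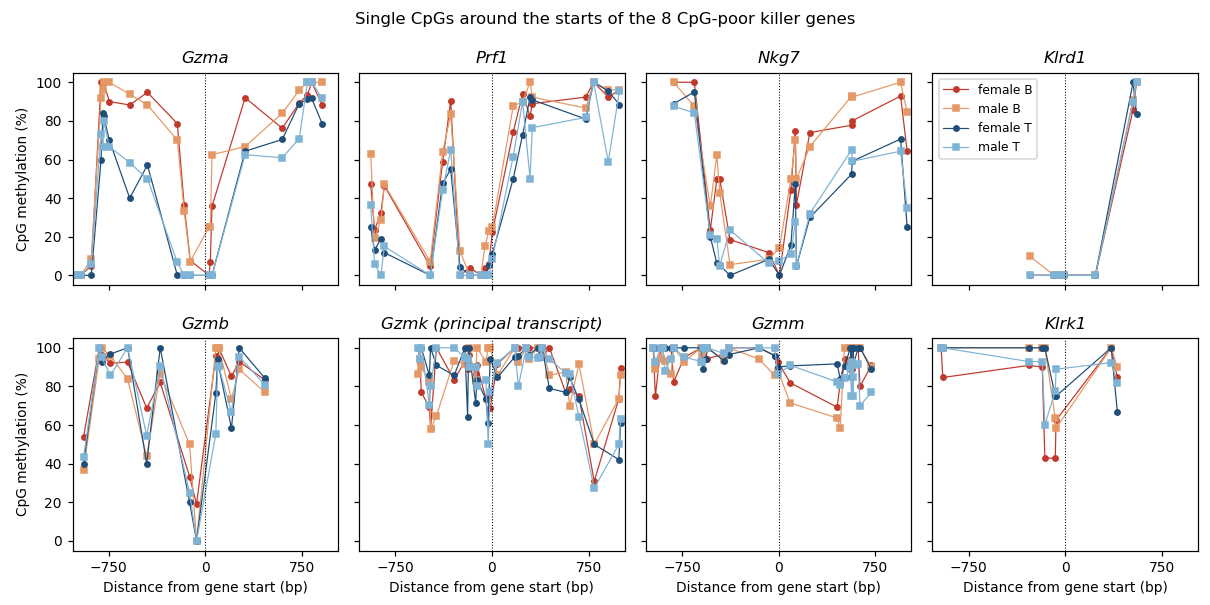
Methylation of single CpGs (%, y axis) against distance from the gene start (bp, x axis, dotted line at the start) for the 8 CpG-poor members, with 1 line per library and Gzmk drawn at its principal transcript. Prf1 and Klrd1 reach 0% in all libraries at a CpG before the start, at -86 and -87. In all libraries Gzma is at or below 7.69% at -117 and Nkg7 at or below 11.8% at -76. At 52 bases past the start Gzma is at 35.7% and 62.5% in B and 0% in both T libraries. Several CpGs to the sides are higher in B cells at Gzma, Prf1 and Nkg7, and Gzmm does not fall below 58.3% in any library.

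Over the 300 bases around the Gzma start the T libraries held 0 methylated of 80 reads in females, which allows up to 3.75%, and 1.54% of 65 reads in males, whereas the B libraries held 25.8% (16.7 to 37.4) and 36.6% (26.4 to 48.2). The Prf1 start was low in all, at 5.19% in female B, 12.2% in male B, 3.28% in female T and 1.36% in male T cells, and methylation rose on both sides, to 90.5% and 83.3% in B and 55.0% and 65.0% in T cells at -320. A second bare point lay at -479, where no library was above 7.14%. Around the Klrd1 start 0 of 34 reads were methylated in female B, 0 of 32 in male B, 0 of 44 in female T and 0 of 51 in male T cells, which allows up to 8.82%, 9.38%, 6.82% and 5.88%.

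At Nkg7 the CpG at -76 was between 6.25% and 11.8% in the 4 libraries and the CpG at 7 was between 0% and 14.3%. The shoulders differed from CpG to CpG: at -457 B cells were at 50% and 42.9% and T cells at 5.26% and 5.00%, and at 139 they were at 36.7% and 50% against 4.76% and 5.00%. At -377 the order differed by sex, with 18.5% in female B against 0% in female T and 5.56% in male B against 23.5% in male T cells, and at -530 B cells were at 23.3% and 35.7% and T cells at 20% and 20.8%. At Gzmb a single CpG, at -68, was bare or nearly so, with 19.0% in female B (21 reads) and 0% in male B (8 reads), female T (11 reads) and male T cells (27 reads). Its neighbour at -122 was between 20% and 50%, and at 104 all 4 libraries were at 90.5% or above.

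The other 3 stayed higher. Over the same 300 bases Gzmm was between 89.6% and 95.5%. Gzmk was between 75.3% and 83.3% at its GENCODE start and between 81.2% and 94.1% at its principal start. At the GENCODE start the level fell in part, to 40% in female B, 57.9% in female T, 46.2% in male B and 75% in male T cells at -40, on 12 to 19 reads, and to between 46.2% and 83.3% at -9. Klrk1 was between 62.5% and 87.5% on 32 to 47 reads a library, and at -77 it was at 42.9% and 63.6% in B and 75% and 77.8% in T cells, on 7 to 11 reads. For comparison, 9212 CpG-poor genes with at least 4 CpGs in this stretch had medians of 2.58% to 3.88% in the 4 libraries, with 59.2% to 61.8% of them under 10% and upper quartiles of 58.2% to 59.7%. In 3 of the 4 libraries Prf1 lay with the larger share, under 10%, as did Gzma in both T libraries but neither B library, whereas Gzmk, at either start, and Klrk1 lay above the upper quartile in all 4.

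Across the whole windows the B minus T difference passed the test at 6 members by adjusted p alone, by 2.94 to 5.60 points, and did not pass at Gzmb, Gzmk, Gzmm and Nkg7. Klrk1 was at 90.8% in both B libraries and 86.1% and 86.4% in the T libraries, Klrd1 at 85.6% and 86.9% against 81.4% and 82.3%, and Gzma at 83.7% and 83.2% against 79.2% and 79.1%. Eomes had the lowest window, at 28.4% and 31.7% in B and 27.3% and 26.9% in T cells, with 62.6% to 64.4% of its 609 CpGs under 20% in each library. The Gzmm window was near the middle, at 52.3% and 50.3% in B and 49.0% and 51.1% in T cells, and it also holds the bare promoters of the neighbours Cdc34 and Bsg.

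Prf1 was the member window called at a minimum of 5 points, with 83.7% and 83.6% in B against 78.3% and 77.8% in T cells, a difference of 5.60 points (adjusted p = 9.68e-06). That is 1 of 10, where 16.5% of 21611 gene windows were called higher in B, and 0 of 10 were called higher in T, where 0.514% were. By adjusted p alone 6 of 10 were higher in B (Gzma, Prf1, Eomes, Tbx21, Klrd1 and Klrk1), against 37.8% of all windows, and 0 higher in T, against 1.95%. Klrd1 and Klrk1 are not independent here, since their windows overlap. Of these 6, Prf1 stayed called in the fits of 3 libraries, with differences of 5.33 to 5.87 points. Each of the other 5 was lost without female T cells. Gzma, Eomes, Tbx21 and Klrd1 were also lost without male T cells, and Eomes, Tbx21 and Klrd1 without male B cells as well. The difference at Eomes, 2.94 points, was 1.30 without male B and 4.59 without female B cells, and that at Tbx21, 4.39 points, was 2.79 without female T cells. With at least 10 reads per CpG Klrd1 (0.0631) and Eomes (0.133) were lost, and Eomes was also lost with limma (0.1295) and with CpGs listed in each library by itself (0.0610). The member differences ran from 0.315 points at Gzmb to 5.60 at Prf1, with a median of 3.93 beside 1.75 for all windows, whose quartiles were 0.404 and 3.86. None of the 10 windows was higher in T at an unadjusted p under 0.05 either, with edgeR or with limma.

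Of 248 tiles of 1 kb tested in the member windows, 9 were called higher in B, or 3.63%, where 2.36% of 1530528 tiles genome-wide were, and 1 was called higher in T, where 0.812% were. They fell in the windows of Gzma (3), Gzmk (3), Nkg7 (2), Prf1 (1) and Tbx21 (1), and none in those of Gzmb, Gzmm, Eomes, Klrd1 and Klrk1. By adjusted p alone 32 were higher in B, where 7.16% of all tiles were, and 5 higher in T, where 2.19% were. The median tile in the member windows differed by 0.518 points, beside 0.788 for all tiles.

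**Figure D3:**
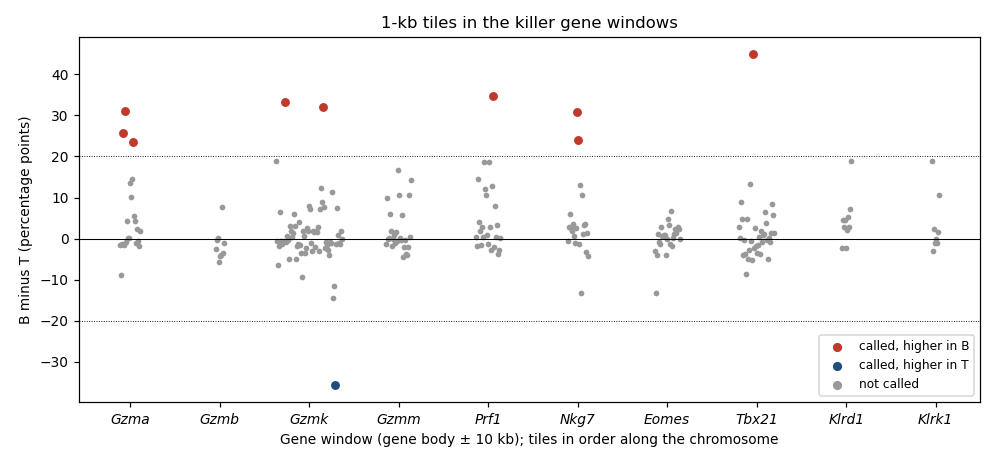
Difference in methylation level between B and T cells (percentage points, y axis) for every 1-kb tile tested in the 10 gene windows (x axis, tiles in chromosome order). Coloured points are called tiles, and dotted lines mark 20 points either way. The tile in Tbx21 at 45.0 points is the highest and the tile in Gzmk at -35.7 is the lowest.

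The largest difference lay inside Tbx21, the gene for T-bet, in a 1-kb tile of an intron. It was 68.5% (62.1 to 74.3) in female B and 75.3% (68.6 to 80.9) in male B cells, against 20.9% (16.2 to 26.5) in female T and 32.8% (27.7 to 38.3) in male T cells, a difference of 45.0 points (adjusted p = 2.53e-23). The intervals of the B and T libraries did not overlap, while the Tbx21 promoter was nearly bare in all 4.

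Another lay downstream of Prf1, 1321 bp past the end of the gene, at chr10:61306001-61307000. Its level was 49.1% (43.5 to 54.8) in female B and 48.6% (42.0 to 55.3) in male B cells, against 8.66% (6.17 to 12.0) and 19.7% (15.7 to 24.6) in T cells, a difference of 34.7 points (adjusted p = 1.96e-20). A run of 13 CpGs there, at chr10:61305974-61306561, was almost free of methylation in T cells, at 0.613% and 0.435%, and stood at 40.4% and 38.2% in B cells. Among the runs of low CpGs of T cells in the Prf1 window, it was chosen for the largest B minus T difference. Its levels are therefore no separate support for that difference. The first 300 bases of the run, with 7 of its 13 CpGs, are shown on the gene's strand, with CpGs in capitals, and overlap the 1 called tile of the window. They are chr10:61305974-61306273 (plus strand).
Prf1 downstream: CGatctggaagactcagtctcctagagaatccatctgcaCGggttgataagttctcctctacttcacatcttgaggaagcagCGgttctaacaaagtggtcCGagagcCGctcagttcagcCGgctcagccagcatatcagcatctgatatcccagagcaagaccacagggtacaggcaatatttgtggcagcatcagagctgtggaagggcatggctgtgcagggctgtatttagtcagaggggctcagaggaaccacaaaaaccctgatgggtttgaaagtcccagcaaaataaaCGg

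The 7 CpGs shown for Prf1 were at 50% in female B, 54.1% in male B, 1.14% in female T and 0.763% in male T cells. The first 6 of them were between 31.2% and 81.2% in the B libraries, and the last was at 0% in all 4. Further on, at chr10:61306451, all 4 libraries were again at 0%, and at the far edge, chr10:61306560, female B cells were at 70.0% and male B cells at 27.3% with T cells at 0%.

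**Figure D4:**
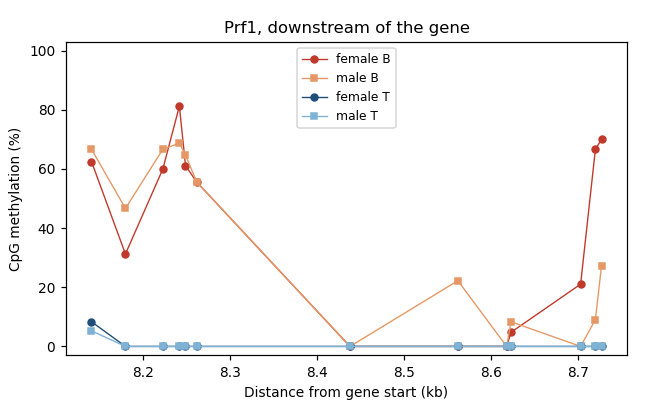
Methylation of single CpGs (%, y axis) against distance from the gene start (kb, x axis) in the run of 13 CpGs downstream of Prf1, with 1 line per library. The T libraries stay at or below 8.33% throughout, and both B libraries fall to 0% at a CpG in the middle of the run.

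At Gzma 1 of the 3 tiles was the upstream shoulder of the promoter itself, at chr13:113101001-113102000, with 49.1% and 53.7% in B and 26.4% and 29.4% in T cells (23.5 points, adjusted p = 1.43e-06). Both others lay beyond the end of Gzma in an intron of the neighbouring gene Cdc20b. The tile at chr13:113090001-113091000 was at 89.0% and 84.3% in B and 52.4% and 59.1% in T cells (30.9 points, adjusted p = 3.02e-12), and the tile at chr13:113087001-113088000 was at 70.0% and 68.2% against 42.1% and 44.6% (25.8 points, adjusted p = 6.53e-07). A further bare run upstream of Gzma, 8 CpGs at chr13:113101866-113102112, was at or below 3.29% in all 4 libraries.

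At Gzmk the tiles went both ways. Just past the end of the gene, at chr13:113170001-113171000, B cells were at 89.4% and 92.4% and T cells at 61.7% and 53.4% (33.4 points, adjusted p = 5.19e-12). In an intron of the long Gzmk transcript, which also lies in the neighbour Esm1, the tile at chr13:113212001-113213000 was at 91.4% and 80.3% against 53.3% and 54.4% (32.0 points, adjusted p = 1.31e-12). The tile at chr13:113224001-113225000, close to the far start, had the opposite order, with 35.5% (29.2 to 42.3) in female B and 46.7% (38.0 to 55.6) in male B cells against 76.4% (67.5 to 83.5) and 77.1% (67.7 to 84.4) in T cells (-35.7 points, adjusted p = 7.79e-10). This was the only called tile of the 10 that was lower in B. With at least 10 reads per CpG it kept too few CpGs to be tested, as did the tile at chr13:113090001-113091000 in the Gzma window.

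Nkg7 is a short gene, and its tiles cover it whole. The tile at chr7:43437001-43438000 was at 59.0% and 65.9% in B and 31.8% and 31.6% in T cells (30.7 points, adjusted p = 3.88e-07), and the next, at chr7:43438001-43439000, was at 57.4% and 57.9% against 36.2% and 31.2% (23.9 points, adjusted p = 5.54e-05). With limma on logit levels 3 of the 9 tiles higher in B stayed called, those of Tbx21, Prf1 and the end of Gzmk, and the tile higher in T was lost with an adjusted p of 0.0510.

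Runs of at least 4 neighbouring CpGs, each under 50%, are a way to count bare places without a test. The member windows held 28 in B cells and 31 in T cells. Of these, 1 of the B runs and 3 of the T runs met no run of the other cell type, where genome-wide 18.7% of 76212 B runs and 27.6% of 84779 T runs did. These counts moved with the limits: under 30% they were 4 of 29 and 6 of 26 (18.8% and 26.5% genome-wide), and with at least 6 CpGs 1 of 19 and 6 of 25 (15.4% and 23.8%). The B run lay in the Gzmk intron at chr13:113223727-113224105, with 19.0% and 26.9% in B and 65.3% and 59.6% in T cells. The T runs were 1 in the Tbx21 intron and 2 in Cdc20b within the Gzma window, at chr13:113087782-113087893 (25.7% and 36.6% in B, 7.14% and 6.06% in T cells) and chr13:113090499-113090624 (84.6% and 76.2% in B, 28.2% and 26.0% in T cells). The windows of Gzmb and Klrk1 held no run in either cell type.

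The longest runs of Eomes and Tbx21 were found in both cell types. At Eomes 231 CpGs over chr9:118475788-118479745, across the start, were at 3.11% and 3.92% in B and 3.30% and 2.69% in T cells. Past the end of the gene, 143 CpGs at chr9:118486425-118490208, a run that overlaps the neighbour Gm33460, were between 3.95% and 4.97% in every library. At Tbx21 125 CpGs over chr11:97114331-97116137 were at 1.73% and 2.47% in B and 0.913% and 1.07% in T cells. At Klrd1 the longest was the run of 5 CpGs at the start, at chr6:129591506-129592017, with 0% in 3 libraries and 1.69% in male B cells. Within the Gzmm window the runs were those of Cdc34, of 149 CpGs over 2231 bp, and Bsg, and in the Nkg7 window the longest, of 83 CpGs over 2030 bp, was at the neighbours Etfb and Gm45233. In the Gzmk window the longest run of T cells, of 31 CpGs over 1090 bp, was at the start of the neighbour Esm1. The longest of B cells there, of 16 CpGs over 538 bp, lay within it.

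No tile in these windows was called for sex. None of the 248 tiles was called between females and males, where 0.0868% of all tiles were, and the count did not change without the minimum of 20 points or with limma. The largest difference was 11.5 points, in the Nkg7 window, and the lowest adjusted p was 0.321, at another tile, in the Gzmk window. At an unadjusted p under 0.05 there were 13 tiles with edgeR and 10 with limma, and 0 of these reached 20 points. Whether the B minus T difference itself varied with sex cannot be told, since each sex and cell type is 1 library.

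Other genes of the killer programme were taken from lists of receptors, effectors, regulators and adaptors that were chosen with earlier results of these data known. Among effectors 4 of 18 tested promoters were called higher in B and 0 higher in T, against 0.956% and 0.41% of all promoters. Fasl, the death ligand, was at 88.1% and 85.3% in B and 17.4% and 17.8% in T cells (69.1 points, adjusted p = 6.74e-83), and Ifng, the cytokine interferon gamma, was at 86.1% and 83.7% against 54.9% and 55.6% (29.7 points, adjusted p = 7.68e-18). Serpinb9, an inhibitor of granzyme B, differed by 27.3 points and the chemokine gene Xcl1 by 20.8. By adjusted p alone 8 were higher in B, against 17.7% of all promoters, and 1, the chemokine gene Ccl3, was higher in T, against 2.2%.

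Beside the same 0.956% and 0.41% of all promoters, among receptors 2 of 25 were called higher in B and 0 higher in T: Il2rb, the beta chain of the interleukin-2 and interleukin-15 receptors, at 79.5% and 75.1% in B and 37.4% and 43.2% in T cells (37.0 points), and Crtam, an adhesion receptor, at 20.8 points. Among regulators 1 of 11 was called, Runx3, the Runx factor of killer cells, with 60.3% and 59.6% in B and 34.2% and 31.1% in T cells (27.3 points, adjusted p = 3.41e-11), and of the adaptors 0 of 4. By adjusted p alone, where 17.7% of all promoters were higher in B, 4 of 25 receptors, 3 of 11 regulators and 1 of 4 adaptors were. The adaptor was Hcst, which signals for NKG2D (18.3 points, adjusted p = 4.20e-07).

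Over gene windows 6 of 11 regulators were called higher in B, against 16.5% of all windows. Ets1, a transcription factor of lymphocytes, was at 70.1% and 70.3% in B and 38.9% and 40.1% in T cells (30.7 points), Tox differed by 14.8 and Zfp683, the gene for Hobit, by 8.67 points, and Prdm1, Id2 and Stat4 by 5.53 to 5.75. Effectors had 5 of 19 called higher in B (Fasl, Serpinb9, Xcl1, Ctsw and Ctsc), adaptors 2 of 4 (Tyrobp and Hcst, whose windows overlap) and receptors 5 of 29, a share close to that of all windows, among them Il2rb at 7.75 points. The single window called higher in T, against 0.514% of all windows, was Klrb1c, which encodes NK1.1, at 69.7% and 69.6% in B and 76.0% and 74.8% in T cells (-5.76 points). Reads of Klra and Klrb1 genes may be split among near-identical copies, so their values are uncertain.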

How the data were processed

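Methylomes of naive CD4+ T cells and CD43- B cells from female and male C57BL/6J spleens were deposited as 4 tables, 1 per group of 2 labelled samples. The submitters' processing notes name Trim Galore, FastQC, Bismark 0.13.1 and mm10, without roles. The deposited tables give each CpG a fraction (its methylation level, rounded up to 3 decimals) and the read count, with both strands joined and at least 5 reads. Removal of duplicate reads, and whether a file joins both samples of its group, are not given in the sources used here. Oxidation is meant to make 5-hydroxymethylcytosine read as unmethylated, so levels depend on its completeness. The study itself describes the reads as detecting both modifications.

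From these, methylated read counts were recovered as whole reads at 100% of CpGs (the whole number gave the deposited level to within 1e-06 after rounding up). CpGs listed in all 4 libraries were summed over gene windows (body with 10 kb either side, GENCODE M21), promoters (1 kb either side of the start) and 1-kb tiles of the autosomes and X, keeping regions with at least 5 CpGs and 20 reads per library. Counts were tested in edgeR 4.0.16 (R 4.3.3) with a term per library, methylation, and methylation by cell type and by sex, which left 1 residual degree of freedom. The dispersion was common to all regions, from 20000 of them, and the p-values lean on it. The B minus T difference by sex, with 1 library per arm, was fitted without a term for sex itself and is not reported. In simulated data with 200 regions changed by 30 points, calls recovered 200 gene windows, 92 promoters and 173 tiles (of 20000 drawn), with 5, 0 and 0 false calls. The changed regions were drawn from middle levels only, with a spread set by hand and no sex effect. So the simulation does not show how calls behave at very low or very high levels, such as those of the Eomes, Tbx21 and Gzmm promoters. Depth was a median of 14 to 17 reads per CpG. All 10 members are named in every kind of region, and of the tiles those called. Named runs of low CpGs are the longest of a window in at least 1 cell type and those found in 1 cell type only. Of other killer genes at most 6 called per list are named. Alternatives were no minimum difference, at least 10 reads per CpG, other region sizes, limma 3.58.1, no filter, CpGs listed per library, each library left out, unweighted levels and other limits for runs, and, added after the data were seen, Gzmk from its principal transcript. Promoters were CpG-rich at an observed over expected ratio of at least 0.6 and at least 50% GC. RefSeq promoter entries (GRCm38) were found by gene name for 9 of the 10 members, all but Klrd1. That match does not show that the starts agree, and at Gzmb the RefSeq start lies upstream of the GENCODE start used here. The 300-base stretches around starts were described after the data were seen. The members and lists were chosen with earlier results of these data known. The sequence of 1 called stretch is not reported here.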

Additional observations from a re-analysis of the deposited data

How the results depend on the processing

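Without a minimum difference the members called higher in B rose from 1 to 6 gene windows, from 1 to 4 promoters and from 9 to 32 tiles, and the tiles higher in T from 1 to 5, where 37.8% of all windows, 17.7% of promoters, 7.16% of tiles and, higher in T, 2.19% of tiles were. With at least 10 reads per CpG 2 gene windows were called higher in B (13.5% of all) and 0 tiles higher in T (0.996%), and with 5 kb instead of 10 kb on either side 2 windows were (18.3%). With 500 bases on either side of the start 2 promoters were called (0.972% of all), Gzma (33.3 points) joining Nkg7. With limma on logit levels 0 promoters, 3 tiles higher in B and 0 tiles higher in T were called (0.863%, 1.56% and 0.444% of all). Leaving out each library in turn gave 1 to 3 gene windows (3 without female B cells, where 21.8% of all were, and 6.78% to 11.3% without another), 0 promoters without any 1 of the 4 libraries (0.142% to 0.585% of all), 10 to 12 tiles higher in B (2.38% to 2.40%) and 1 tile higher in T (0.813% to 0.841%). The cause of these changes was not tested, and the fits without a library also had no term for sex. Their common dispersion for promoters was 0.0369 to 0.0439, against 0.0109 in the main fit. Under a threshold of 30% runs of 1 cell type were 4 of 29 in B and 6 of 26 in T cells (18.8% and 26.5% genome-wide), and with at least 6 CpGs they were 1 of 19 in B and 6 of 25 in T cells (15.4% and 23.8%).

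Differences near 0 turned: the Gzmb window was -1.27 points with at least 10 reads per CpG and -0.0246 with 5 kb on either side, the Gzmm promoter was 0.405 with at least 10 reads, and the Gzmk promoter was -2.42 with 500 bases on either side. With each library left out in turn the Gzmm promoter ran from -1.67 (without male T cells) to 1.56 (without female T cells) and the Gzmk promoter from -0.848 (without female T cells) to 3.37 (without male T cells). None of these passed the test. With Gzmk from its principal transcript the counts did not change. Of 80 levels, 18 moved beyond their interval when CpGs were weighted equally. No paired analysis was possible because the groups share no replicate number and each has 1 file.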
